A study of Mus musculus with 6 samples.

Results

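The inter-alpha-trypsin inhibitor family was examined as its heavy chains Itih1, Itih2, Itih3, Itih4 and Itih5 together with Ambp, which encodes the precursor of their light chain. Members were chosen by gene symbol, as all probe sets annotated to 1 of these 6 genes alone, which gave 8 probe sets of the 45037 tested, and 6 of the 18193 named genes. The family was singled out from results of these same arrays, in which Itih3 had a large rise. The knockout against wild type values of the members are therefore given as a description, with no test, and the counts of members past a threshold support nothing.

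The samples were cortex of mice at postnatal day 29, 3 from wild type mice and 3 from littermates with the HtrA2 knockout, 1 Affymetrix array each. HtrA2 is a protease that works between the membranes of the mitochondrion. The labels give no strain, no sex, no further allele and no treatment, and they name neither the deleted part of the gene nor whether each array is a separate animal. Levels are the deposited values read as log2, differences are knockout minus wild type on that scale, and ± is the standard error of a difference, or the SD where it is named. Each group has n = 3.

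Inter-alpha-trypsin inhibitors are secreted proteoglycans best known from blood plasma, where the liver is their main source. Heavy chains are attached through a chondroitin sulfate chain to bikunin, a Kunitz-type protease inhibitor cut from the Ambp product. From there they can be transferred onto hyaluronan with the help of TSG-6, the product of Tnfaip6, which stabilizes hyaluronan-rich matrix. In the brain, Itih3 transcripts are known from astrocytes.

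Itih3 was the 1 member past the threshold used for all probe sets (limma with Benjamini-Hochberg adjustment, adjusted p under 0.05), and it was higher in the knockout. The other 7 probe sets did not pass it. Over all probe sets 1.77% passed, and 0.884% of all passed in the upward direction. Since this contrast was used in choosing the family, nothing is read from the comparison of these shares. The differences of the members other than Itih3 lay between 0.05 and 0.39, all 8 probe sets were above 0, and their median was 0.19 against 0.00482 over all probe sets.

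Itih4, Itih3 and Itih1 lie next to each other on chromosome 14, and Itih2 and Itih5 lie next to each other on chromosome 2. Ambp is on chromosome 4. The promoter windows of the chromosome 14 trio are shown because these adjacent genes differed most in their values. Each runs from 250 bases before to 50 bases after the annotated start, 5′ to 3′ on the gene's strand, from RefSeq on GRCm38.p6. Capitals mark matches to the motifs searched.
Itih4 promoter, chr14:30886226-30886525, strand +: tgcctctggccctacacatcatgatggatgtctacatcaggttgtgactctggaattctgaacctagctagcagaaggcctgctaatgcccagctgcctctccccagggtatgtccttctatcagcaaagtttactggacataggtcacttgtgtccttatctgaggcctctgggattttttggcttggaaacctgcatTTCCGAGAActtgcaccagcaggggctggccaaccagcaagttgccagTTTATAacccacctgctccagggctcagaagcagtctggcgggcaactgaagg
Itih3 promoter, chr14:30923538-30923837, strand -: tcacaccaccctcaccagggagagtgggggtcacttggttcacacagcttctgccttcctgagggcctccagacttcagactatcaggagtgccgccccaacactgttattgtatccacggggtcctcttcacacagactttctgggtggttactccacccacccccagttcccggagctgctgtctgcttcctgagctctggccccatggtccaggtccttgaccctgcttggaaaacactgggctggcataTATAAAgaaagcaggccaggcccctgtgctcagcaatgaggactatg
Itih1 promoter, chr14:30943240-30943539, strand -: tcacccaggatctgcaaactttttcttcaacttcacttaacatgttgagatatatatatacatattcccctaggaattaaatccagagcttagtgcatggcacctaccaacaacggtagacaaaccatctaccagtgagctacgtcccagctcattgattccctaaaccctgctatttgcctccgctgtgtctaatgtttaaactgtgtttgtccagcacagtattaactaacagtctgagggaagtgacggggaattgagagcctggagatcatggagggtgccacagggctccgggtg

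All 6 members had 1 such window. The 3 stress-related motifs were searched on both strands. TGATGNAA, a form of the composite C/EBP-ATF element, was in 0 of the 6 windows and in 3.97% of all 32851 windows. An interferon response form, TTTC repeated with 2 bases between, was also in 0 of 6, and in 3.44% of all windows. TTCNNNGAA, the STAT form, was in 1 of 6, that of Itih4, where it begins 51 bases before the start, and in 8.30% of all windows. A TATAAA search, added after the windows were seen, matched Itih3 on the forward strand and Itih4 on the reverse, 2 of 6, against 13.6% of all windows. Relative to the annotated start the match begins at position 4 in Itih3, so after the start, and at -3 in Itih4. The matches are letters in these windows, and the windows of Itih3 and Itih1 hold none of the 3 stress-related motifs.

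Itih3, one of the heavy chains of the plasma inhibitor, had levels of 8.61, 8.69 and 8.77 in wild type replicates 1, 2 and 3. In knockout replicates 1, 2 and 3 it had levels of 10.26, 9.89 and 10.49. The groups did not overlap: the lowest knockout array stood 1.12 above the highest wild type array, while the wild type arrays spanned 0.16 and the knockout arrays 0.60. The means were 8.69 ± 0.0786 (SD, n = 3) and 10.21 ± 0.304 (SD, n = 3), a difference of 1.52 ± 0.14, or 2.88-fold. Against the wild type mean, the knockout arrays ranged from 2.29-fold in replicate 2 to 3.48-fold in replicate 3. It ranked 11th among 45037 probe sets ordered by the size of the rise.

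Itih2, which with Itih1 and bikunin forms inter-alpha-trypsin inhibitor itself, had the next largest difference. Its levels were 6.84, 6.94 and 7.21 in wild type and 7.22, 7.18 and 7.75 in the knockout, in replicate order. Knockout replicate 3 stood apart from the others, and knockout replicate 2 fell below the highest wild type array, so the groups overlapped. The difference was 0.39 ± 0.16, with an SD of 0.191 among the wild type arrays and of 0.315 among the knockout arrays.

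Itih5, a heavy chain found outside plasma in many tissues, was measured by 3 probe sets that did not behave alike. At 1429159_at the levels were 9.31, 9.50 and 9.51 in wild type and 9.67, 9.62 and 10.03 in the knockout, in replicate order. These groups did not overlap, with a gap of 0.10 and a difference of 0.33 ± 0.12. Over all probe sets, 11.6% had knockout arrays entirely above wild type arrays, and 2 of the 8 member probe sets did, those of Itih3 and this one.

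At 1436755_at, Itih5 levels were 6.65, 6.77 and 6.35 in wild type and 6.47, 6.28 and 7.27 in the knockout. At 1441946_at they were 7.20, 7.16 and 7.14 against 7.12, 7.23 and 7.76. In both, 1 knockout array, replicate 3, was well above the rest and the other two lay near or among the wild type arrays. The differences were 0.09 ± 0.24 and 0.20 ± 0.15.

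Itih1, the remaining partner of Itih2, had levels of 5.30, 5.09 and 5.23 in wild type and 5.08, 5.62 and 5.12 in the knockout. Here knockout replicate 2 was high and the other two lay near the lowest wild type array, for a difference of 0.06 ± 0.15. Itih4, a kallikrein-sensitive acute phase protein that is not joined to bikunin, had 4.77, 4.96 and 4.89 against 4.83, 5.18 and 5.14. Its groups overlapped and the difference was 0.17 ± 0.11.

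Ambp, the source of bikunin and of the lipocalin alpha-1-microglobulin, had levels of 4.60, 4.75 and 4.73 in wild type and 4.75, 4.78 and 4.69 in the knockout. The groups overlapped, with a difference of 0.05 ± 0.08. Itih1, Itih4 and Ambp were each below the median brightness of all probe sets, where RMA compresses differences, and the other 5 probe sets were above it. All 3 dim probe sets were highest in knockout replicate 2. That array also held the highest value of 40.3% of all probe sets below the median brightness, and its lower quartile was 4.90 where the other arrays had 4.76 to 4.82.

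**Figure D1:**
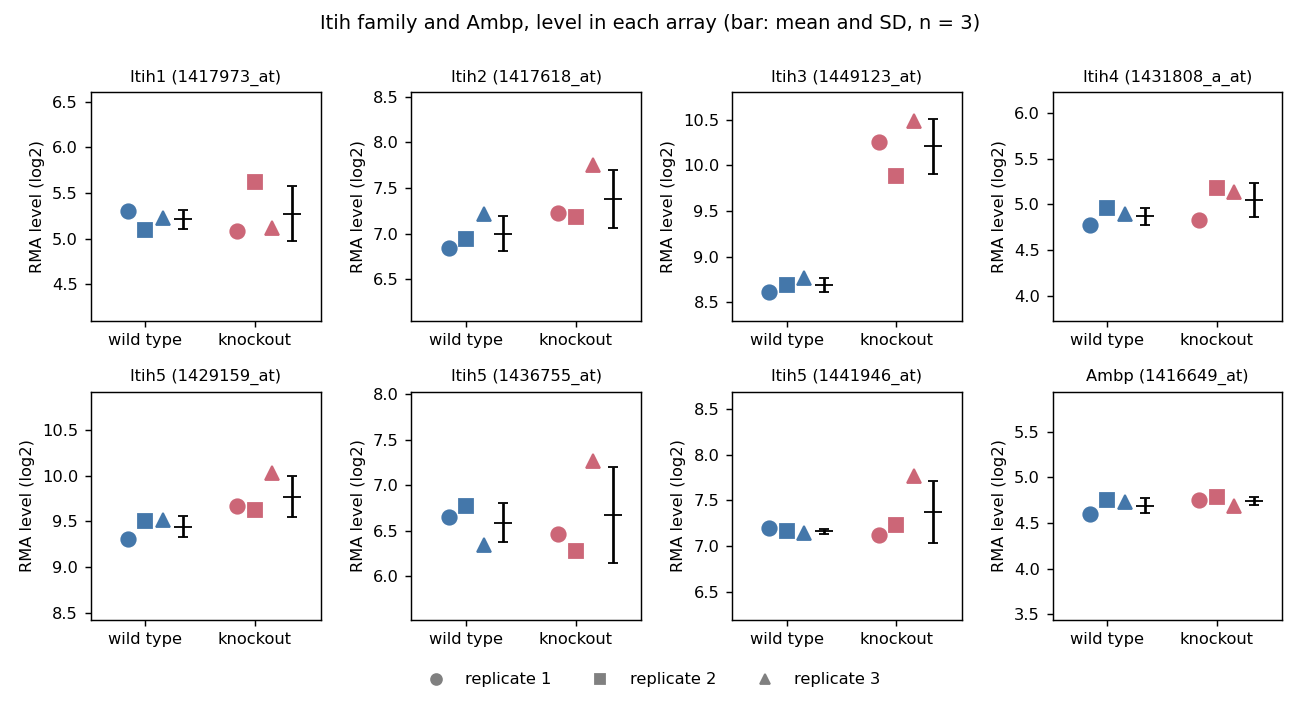
RMA level (log2) of each member probe set in the 3 wild type (blue) and 3 knockout (red) arrays, with the marker shape giving the replicate number and the black bar the mean and SD; every panel spans the same number of log2 units. The Itih3 knockout arrays, 9.89 to 10.49, lie clear of wild type at 8.61 to 8.77, and knockout replicate 3 is the highest array in all 3 Itih5 panels.

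The genes around the members were read next, to see whether the difference at Itih3 extended along its chromosome. Of the 10 genes nearest to the chromosome 14 trio, 5 on each side in RefSeq order, 7 were measured, and 0 rose or fell. At the brightest probe set of each their differences lay between -0.04 and 0.28, and at that of smallest p between -0.38 and 0.22. By smallest p, Sfmbt1, a chromatin protein of the Polycomb group, had the lowest value, -0.38 ± 0.10 at 1 of its 5 probe sets. Gnl3, the nucleolar GTPase nucleostemin, had the highest, 0.22 ± 0.08. Between them and the trio, Mustn1 differed by 0.13 ± 0.09 and Nek4, a kinase, by -0.09 ± 0.09.

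Around Itih2 and Itih5 the 4 measured neighbours differed by 0.00 to 0.26, and around Ambp the 4 measured neighbours by -0.21 to 0.09. Counted once each, 0 of 15 measured neighbours passed by limma, against 3.30% of all genes with at least 1 probe set past the threshold. At an unadjusted p under 0.05 the count was 4 of 15, where 27.4% of all genes had such a probe set, and by limma-trend with robust moderation it was 0, where 6.88% did. With array weights, or without knockout replicate 2, 1 neighbour passed, Sfmbt1, with probe sets in both directions.

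**Figure D2:**
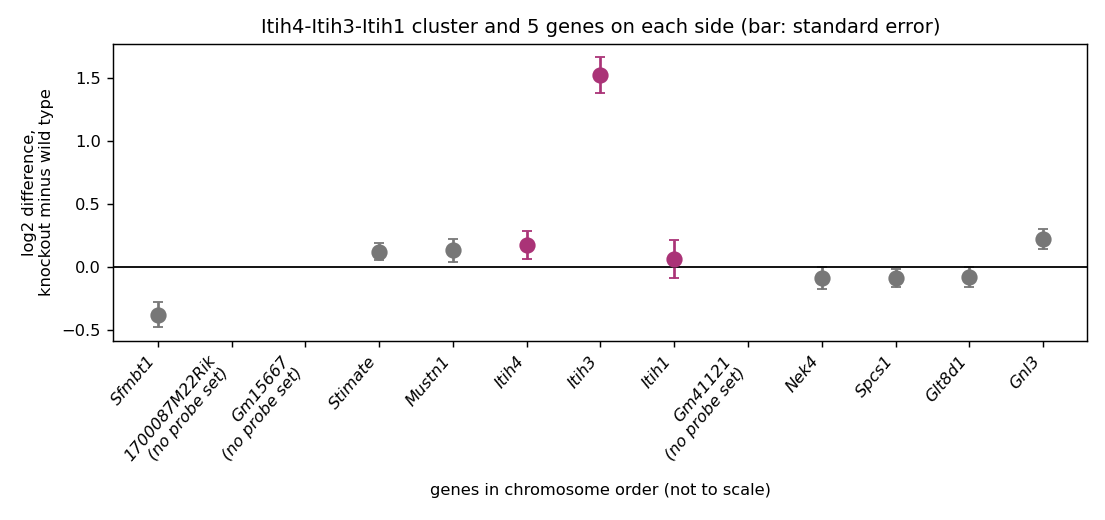
Log2 difference (knockout minus wild type, bar: standard error) of Itih4, Itih3 and Itih1 (purple) and of the 5 genes on each side (grey), in chromosome order and not to scale, at the probe set of smallest p for each gene. Itih3 stands at 1.52, its direct neighbours Itih4 and Itih1 at 0.17 and 0.06, and the flanking genes between -0.38 and 0.22.

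The arrays were then compared with markers of cells that could carry these transcripts. In bulk tissue, more cells of a type and more RNA per cell cannot be told apart. Markers of leptomeningeal and perivascular fibroblasts, 16 of 16 measured and all above the median brightness, had mean deviations from wild type of 0.39, 0.00 and 0.73 in knockout replicates 1, 2 and 3, and of -0.07 to 0.11 in wild type. Their mean level was 8.37 to 8.55 in wild type and 8.44 to 9.17 in the knockout. Among these, Ogn, a small leucine-rich proteoglycan, had 8.89, 8.21 and 9.44 in the knockout and 7.83 to 8.04 in wild type.

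Of the 16 fibroblast markers, 13 were highest in knockout replicate 3, the array in which 5 of the 8 member probe sets were highest (Itih2, Itih3 and all 3 of Itih5). That array held the highest value of 24.1% of all probe sets above the median brightness. In that array Itih2 deviated by 0.75 and the Itih5 probe sets by 0.59, 0.68 and 0.59, near the 0.73 of the fibroblast list. In knockout replicates 1 and 2, where the list deviated by 0.39 and 0.00, Itih2 deviated by 0.22 and 0.19. The Itih5 probe sets there deviated by 0.23 and 0.18 (1429159_at), by -0.12 and -0.31 (1436755_at) and by -0.05 and 0.07 (1441946_at), so the last of these pairs lay within 0.07 of the wild type mean and the second was below it. The part of these cells in the values of Itih2 and Itih5 was not tested.

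Itih3 followed the same order over the knockout arrays, highest in replicate 3 and lowest in replicate 2. The astrocyte, pericyte and oligodendrocyte lists had that order too, and the remaining cell type lists did not. The share of all probe sets with that order was not counted. Knockout replicate 2 had the largest root mean square deviation from its group mean, 0.178, against 0.091 to 0.133 in the other arrays. In replicate 2 the fibroblast list was at 0.00 and Itih3 deviated by 1.20. The part of these cells in the Itih3 values was not tested. No fibroblast marker passed the threshold by limma, 9 of 16 had an unadjusted p under 0.05, and 1 passed by limma-trend with robust moderation. Over all genes the shares were 3.30%, 27.4% and 6.88%, and these stand beside the counts of the cell type lists below as well. Without knockout replicate 2, 9 rose, and the count over all probe sets went from 796 to 3037. Ptgds, which makes prostaglandin D2, and Ogn had the smallest p of the list and differed by 0.61 ± 0.16 (adjusted p = 0.103) and 0.91 ± 0.26 (adjusted p = 0.129).

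Astrocyte markers, 16 of 16 measured, gave 1 rise and 3 falls, where 1.64% and 1.67% of all genes rose and fell. Their mean deviation in knockout replicates 1, 2 and 3 was -0.11, -0.19 and 0.01, with wild type at -0.02 to 0.02. Gfap, the intermediate filament that reactive astrocytes raise, was the rise, by 0.68 ± 0.09 (adjusted p = 0.0162), and Acsbg1, an acyl-CoA synthetase, fell by 0.49 ± 0.08 (adjusted p = 0.0267). The mean level of the list was 10.92 to 10.96 in wild type and 10.75 to 10.95 in the knockout. The part of astrocyte amount in the Itih3 values was not tested. Of the 16 markers, 9 had an unadjusted p under 0.05 and 5 passed by limma-trend, where 27.4% and 6.88% of all genes did. Without any 1 of the wild type arrays, or without knockout replicate 3, 0 astrocyte markers passed. There the count over all probe sets dropped from 796 to between 65 and 107.

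Pericyte and smooth muscle markers deviated by 0.21, -0.03 and 0.25 in knockout replicates 1, 2 and 3 and by -0.07 to 0.06 in wild type. Endothelial markers deviated by -0.01 to 0.09 in the knockout and by -0.06 to 0.03 in wild type. In both lists 0 genes passed by limma, of 10 and 11 measured. At an unadjusted p under 0.05 there were 3 and 4, and by limma-trend 0 and 1. The smallest p values belonged to Myh11, a smooth muscle myosin, at 0.33 ± 0.10 (adjusted p = 0.140; its other probe set was at -0.11), and to Slco1c1, a thyroid hormone transporter, at -0.61 ± 0.13 (adjusted p = 0.0653).

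**Figure D3:**
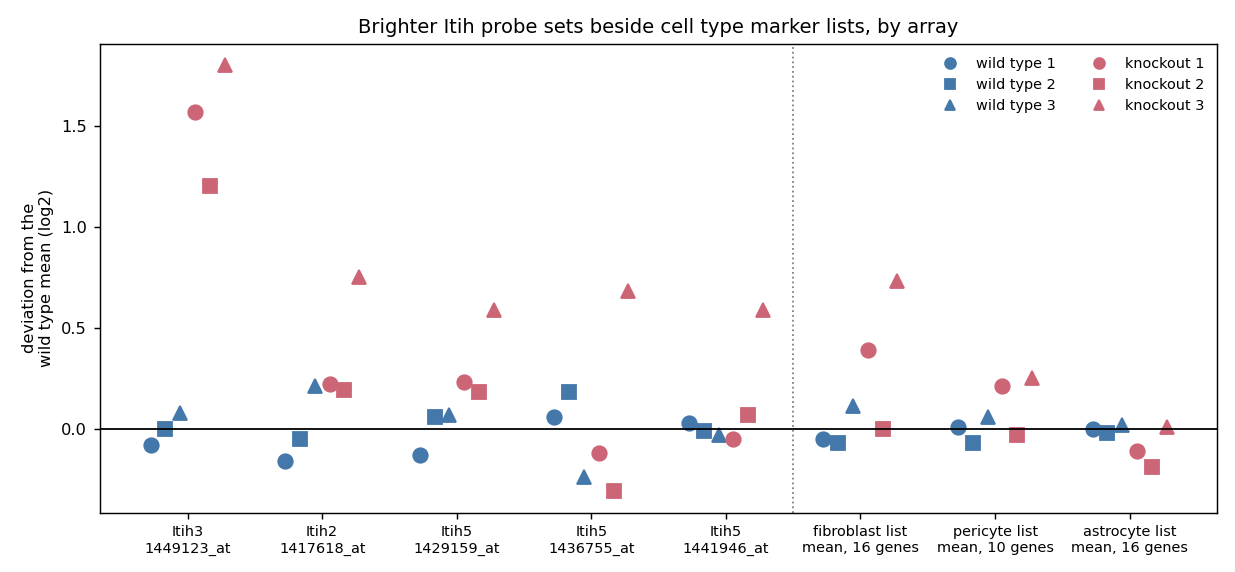
Deviation of each array from the wild type mean (log2) for the 5 brighter Itih probe sets and, right of the dotted line, for the mean of the fibroblast, pericyte and astrocyte marker lists, with 3 wild type (blue) and 3 knockout (red) arrays. Knockout replicate 3 (red triangle) is highest for Itih2, for all Itih5 probe sets and for the fibroblast list, at 0.73, and knockout replicate 2 (red square) is at 0.00 in that list and at 1.20 for Itih3.

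Hepatocyte plasma proteins, among which Itih1 and Ambp are usually counted, gave 0 of 14 measured genes past the threshold with both members left out. At an unadjusted p under 0.05 the count was 2, and by limma-trend 0. Only 3 of the 14 were above the median brightness. The list holds Ttr, which is also a choroid plexus transcript. Ttr was then left out, an omission chosen after the data were seen. In knockout replicates 1, 2 and 3 the mean deviation of the other 13 was -0.06, 0.22 and -0.07. In wild type it was -0.03 to 0.06. With Ttr the values were -0.25, 0.03 and -0.26 against -0.14 to 0.18. Knockout replicate 2, at 0.22, is the array that held the highest value of 40.3% of all probe sets below the median brightness. Apoa1, the main protein of high-density lipoprotein, differed by 0.41 ± 0.10 (adjusted p = 0.0911) at the probe set of smallest p, and the lowest of its 4 probe sets was at 0.00.

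The array of wild type replicate 2 stood apart in choroid plexus transcripts. Ttr, the thyroid hormone carrier made in quantity by that epithelium, had a level of 13.73 there, against 8.65 and 9.23 in wild type replicates 1 and 3 and 6.82, 6.13 and 5.68 in the knockout. The list had 0 of 10 genes past the threshold by limma, 2 at an unadjusted p under 0.05 and 0 by limma-trend. Without wild type replicate 2, 1 gene of the list passed, Ttr, which was lower in the knockout, and Itih3 differed by 1.52; in that replicate no member probe set was at its highest. Ependymal markers were likewise highest in that array, with a mean deviation of 0.34 against -0.18 to -0.16 in the other wild type arrays and -0.73 to -0.35 in the knockout, and 0 of 8 passed (6 at an unadjusted p under 0.05, 0 by limma-trend).

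Neuron markers, 10 of 10 measured and all above the median brightness, had a mean level of 12.26 to 12.29 in wild type and 12.09 to 12.16 in the knockout. Of these 1 fell, Nefm. Microglia had 3 falls of 9, oligodendrocytes 1 of 9 and erythroid cells 1 of 4, where 1.67% of all genes fell. At an unadjusted p under 0.05 there were 5 neuron, 6 microglia, 5 oligodendrocyte and 2 erythroid genes, where 27.4% of all genes had such a probe set. By limma-trend there were 5, 3, 3 and 1, where 6.88% of all genes passed. Over the 11 cell type lists 10 genes passed. Without wild type replicates 1, 2 and 3 there were 0, 1 and 0, where the count over all probe sets went from 796 to 70, 65 and 107. Without knockout replicates 1, 2 and 3 there were 3, 29 and 0, and over all probe sets 377, 3037 and 103. Htra2 was measured by 2 probe sets, of which one was lower by 2.27 ± 0.17 and the other higher by 1.11 ± 0.08.

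Beside the members, 4 pathway lists were read: hyaluronan, chondroitin sulfate assembly, secreted serine protease inhibitors and the acute phase response. For each of them the shares over all genes are 3.30% by limma, 27.4% at an unadjusted p under 0.05 and 6.88% by limma-trend. Hyaluronan synthesis, turnover and binding had 3 falls and 0 rises among 27 measured genes, where 1.67% and 1.64% of all genes fell and rose. All 3 were link proteins, which hold hyaluronan to proteoglycans of the perineuronal and perinodal matrix. Hapln4 fell by 0.67 ± 0.09 (adjusted p = 0.0167), from levels of 9.27, 9.28 and 9.20 to 8.63, 8.70 and 8.43. Hapln2 fell by 0.69 ± 0.11 (adjusted p = 0.0301), from 6.33, 6.45 and 6.28 to 5.59, 5.49 and 5.89. Hapln1 fell by 0.75 ± 0.14 (adjusted p = 0.0426), from 6.95, 6.76 and 6.55 to 6.22, 6.01 and 5.77.

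The groups did not overlap at these 3 probe sets, as at 11.6% of all probe sets in that direction. Those of Hapln1 and Hapln2 were below the median brightness. The other probe sets of Hapln1 and Hapln2 had differences below 0 too, no higher than -0.49 and -0.47, without passing. The fourth link protein, Hapln3, differed by 0.03, with levels of 6.88, 6.82 and 6.93 against 6.74, 7.03 and 6.96. The median of the hyaluronan list, at the brightest probe set of each gene, was 0.01. At an unadjusted p under 0.05 there were 11 of 27, where 27.4% of all genes had such a probe set. Of these 11, Cd44 and Habp4 were higher at the probe set of smallest p and the rest lower. By limma-trend 4 passed, where 6.88% of all genes did. Without wild type replicates 1, 2 or 3 in turn, the count of falls was 0 each time, where the count over all probe sets dropped from 796 to between 65 and 107, and it was 1 without knockout replicate 3. With only the brightest probe set of each gene, 1 of the 3 falls was called, that of Hapln4.

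Among the proteoglycans of that list, Bcan, or brevican, differed by -0.25 ± 0.07 (adjusted p = 0.117) and Ncan by -0.44 ± 0.14 (adjusted p = 0.16). Vcan differed by -0.41 ± 0.17 (adjusted p = 0.276), with the highest of its 8 probe sets at 0.22, and Acan by -0.04 ± 0.11. Cd44, the main hyaluronan receptor, differed by 0.64 ± 0.21 (adjusted p = 0.179) at 1 of its 4 probe sets, the lowest of which was at -0.13. Cd44 had levels of 8.48, 7.71 and 8.39 in the knockout and 7.27 to 7.77 in wild type, so knockout replicate 2 lay within wild type. In that array Itih3 and the fibroblast, pericyte, endothelial, astrocyte and oligodendrocyte lists were also lowest among the knockout arrays.

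Enzymes of chondroitin sulfate assembly, which build the chain that joins heavy chains to bikunin, had 0 of 21 measured genes past the threshold by limma, 5 at an unadjusted p under 0.05 and 0 by limma-trend. Dsel and Chpf2 had the smallest p, at -0.36 ± 0.09 (adjusted p = 0.103) and -0.26 ± 0.08 (adjusted p = 0.140), and the median was 0.00. The other probe set of Chpf2 was at 0.27. Without knockout replicate 2, 2 genes passed, where the count over all probe sets went from 796 to 3037. These were Csgalnact2, which rose, and Chpf2, with probe sets in both directions.

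Secreted serine protease inhibitors had 0 of 21 past the threshold by limma, 5 at an unadjusted p under 0.05 and 1 by limma-trend, with a median of 0.06. Spint2, a Kunitz-type inhibitor like bikunin, came nearest, at 0.50 ± 0.10 (adjusted p = 0.0510), with 8.94, 9.07 and 9.20 in the knockout above 8.42, 8.61 and 8.66 in wild type. A2m, a broad plasma protease inhibitor, differed by 0.57 ± 0.16 (adjusted p = 0.131). Without knockout replicate 2, 3 of the list rose, beside the same increase to 3037 over all probe sets. With only the brightest probe set of each gene, Spint2 passed.

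The acute phase response, in which the liver changes its output of several heavy chains, had 0 of 27 measured genes past the threshold by limma, 6 at an unadjusted p under 0.05 and 2 by limma-trend, with a median of 0.04. The transcription factors Cebpb and Cebpd, which act in that response, differed by 0.53 ± 0.10 (adjusted p = 0.0510) and 0.51 ± 0.11 (adjusted p = 0.0586). Cebpd had 8.33, 8.07 and 8.43 in the knockout and 7.69 to 7.86 in wild type, groups that did not overlap, and its other probe set was at -0.02. With only the brightest probe set of each gene, Cebpd passed. Without knockout replicate 2, 5 of the list rose, where the count over all probe sets was 3037. Only 11 of the 27 were above the median brightness.

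**Figure D4:**
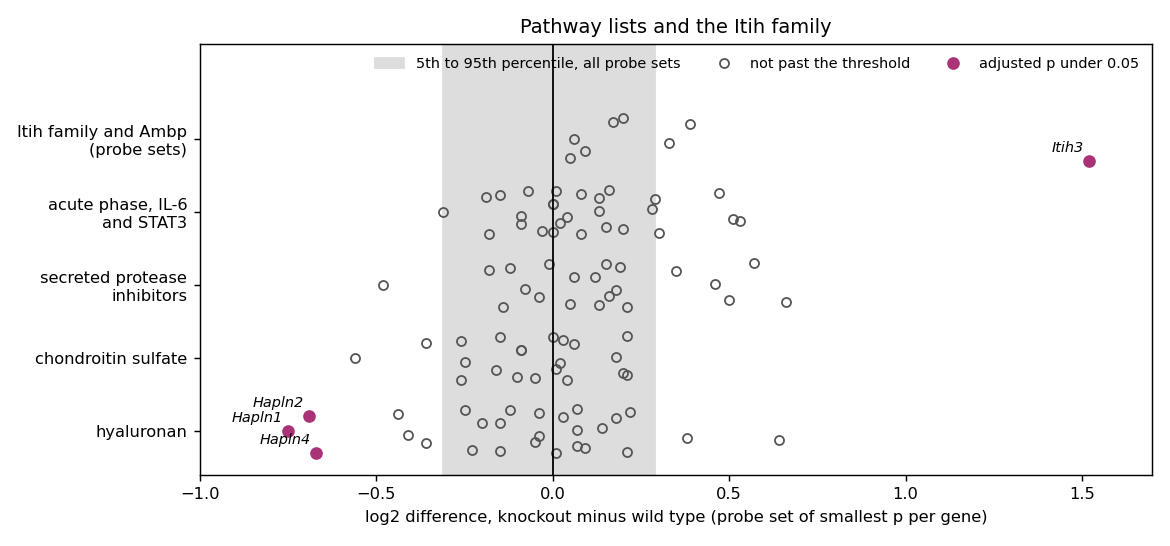
Log2 difference (knockout minus wild type) of each gene of the 4 pathway lists, at its probe set of smallest p, and of the 8 Itih and Ambp probe sets; filled points passed an adjusted p under 0.05, and the grey band spans the 5th to 95th percentile of all probe sets, -0.31 to 0.29. The points of the list genes were picked by smallest p and the band was not, so more of them can lie outside it. The link proteins Hapln1, Hapln2 and Hapln4 lie at -0.75, -0.69 and -0.67, and Itih3 lies alone at 1.52.

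Genes with the profile most like that of Itih3 were ranked by Pearson correlation over the 6 arrays, which is high for any probe set whose groups stand apart in the same direction. The 8 leading genes were Rpl35, Tac2, Coq7, Kcmf1, Stx8, Spaca6, Mrpl10 and Dnajc11, with r from 0.9979 to 0.9990. All 8 had knockout arrays entirely above wild type, but only Spaca6, at 1.45 ± 0.12, had a difference of similar size, while Tac2, which encodes neurokinin B, had 0.53 ± 0.08 and Rpl35, a ribosomal protein, 0.33 ± 0.07. Over all probe sets 4.99% had r above 0.9. Of the members, Itih5 at 1429159_at had r = 0.86 and Itih2 r = 0.79, with 6.93% and 9.96% of all probe sets higher, and the other 5 lay between -0.03 and 0.57.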

How the data were processed

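Total RNA from cortex was labelled and hybridised to 6 Affymetrix arrays, per the labels' protocols. The deposited values are log2 levels per probe set made with RMA, per the submitters' processing notes, which give no version. The base of 2 was taken from their range. RMA corrects background and quantile normalizes, which hides shifts common to most genes. Array medians were 6.40 to 6.46, and the number of arrays limits the precision.

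Of 45101 probe sets, 64 controls were left out and 45037 tested. The platform annotation named 34945 by 1 symbol, 932 by several and 9160 by none, and 34741 were matched by gene identifier to RefSeq (GRCm38.p6), used for names and gene order. Groups were compared with limma 3.58.1 (lmFit, eBayes, two-sided) in R 4.3.3, with Benjamini-Hochberg adjustment over the 45037 probe sets and a threshold of 0.05. A gene counted if any probe set naming it alone passed. The p-values measure the spread between samples, which may be technical. On simulated data over 45037 probe sets the fit found 86 of 100 shifts of 1 on the log2 scale, 98 of 100 shifts of 2, and 3 false ones.

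The members, 4 pathway lists, 11 cell type lists and motifs were chosen with earlier results of these data known. List means and medians use the brightest probe set per gene; named values use the probe set of smallest p. Named genes were all members, Htra2, up to 4 genes per pathway list past the threshold or the 2 of smallest p, up to 2 per cell type list, the neighbours past the threshold and the 8 most correlated genes. Hapln3, Bcan, Ncan, Vcan, Acan, Cd44, Habp4, Ttr and the neighbours named were added after their values were seen. Replicate numbers were not used to pair arrays: same-numbered deviations correlated at -0.196, -0.0405 and -0.169.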

Additional observations from a re-analysis of the deposited data

How the results depend on the processing

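Itih3 was the 1 member past the threshold under all 17 alternatives, with differences of 1.39 (without knockout replicate 3) to 1.69 (without knockout replicate 2). No other member passed in any, and the sign of Itih1, of Ambp and of 1 Itih5 probe set (1436755_at) was not the same in all of them. The alternatives at an adjusted p under 0.01 and under 0.10 reuse the main fit. As the family was chosen through the rise of Itih3 on these arrays, its passing is a description and supports nothing. With the replicate number as a block (replicate block), Itih3 differed by 1.52, and the count over the pathway lists went from 3 genes to 1, over the cell type lists from 10 to 1 and over all probe sets from 796 to 154. Same-numbered arrays did not deviate together.

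The pathway count of 3 became 6 among the brighter probe sets, 7 with limma-trend, 6 after further quantile normalization, 18 with array weights, 0 at an adjusted p under 0.01 and 6 under 0.10; leaving out 1 array gave 0 to 14. The cell type count of 10 became 19 with limma-trend, 41 with array weights, 5 with Y-linked expression in the model, 0 under 0.01 and 19 under 0.10; leaving out 1 array gave 0 to 29. Leaving out both replicates numbered 2, an alternative chosen after the data were seen, gave 4. The neighbour count of 0 became 1 with array weights, and 0 to 1 without 1 array. Over all probe sets the count was 3037 without knockout replicate 2, 1757 among the brighter ones, 1770 with limma-trend and 4205 with array weights. The causes were not tested. Shifts under 1 on the log2 scale, and dim probe sets alone (such as those of Itih1, Itih4 and Ambp), were not simulated, so what could be detected there is not known.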
